A study of Mus musculus with 3 samples.

Results

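The cell cycle genes described here are 47 genes that drive or mark the passage of a cell through division, and they were measured in effector memory CD4 T cells, helper T cells that have met antigen and patrol tissues outside the lymph nodes. They were found by their symbols in the GENCODE M21 annotation, and 47 of 47 were present among the 55536 annotated genes of the deposited tables. By their textbook roles they were placed in 3 classes, with 12 genes of G1 control, 18 genes of DNA replication and nucleotide supply, and 17 genes of mitosis. The cells came from 1 male mouse, an adult of 5 months, of the strain B6.SJL-Ptprca Pepcb/BoyJ, a C57BL/6 line that carries the other allele of the CD45 gene. Poly(A) RNA from these cells was sequenced as 3 libraries, which the labels number as technical replicates 1, 2 and 3 of 1 biosample. The libraries form 1 group, with no other genotype, treatment or time, and the labels name the whole organism as the origin. How the cells were sorted was not stated in the labels. Every SD below is therefore the spread between libraries of 1 biosample, and the p-values compare these libraries with counting error and not animals or conditions.

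A resting T cell sits in G0, outside the cycle. Growth signals induce D-type cyclins, which pair with Cdk4 or Cdk6 and phosphorylate the retinoblastoma family of pocket proteins, so that E2F factors can switch on the genes of DNA replication. The minichromosome maintenance (MCM) helicase is loaded at origins in G1, and DNA is copied in S phase by polymerases held on by Pcna. The mitotic genes follow later, in G2 and mitosis, and are held off in resting cells by the DREAM complex of pocket proteins, E2f4 and the MuvB core, which binds E2F sites and the cell cycle genes homology region (CHR). Memory T cells are mostly resting but can enter division quickly when they meet antigen again.

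Library 1 stood apart from libraries 2 and 3. Across the detected genes, Spearman's correlation of TPM (a level per transcript length, scaled to the same total in each library) was 0.926 between libraries 1 and 2 and 0.925 between libraries 1 and 3, against 0.990 between libraries 2 and 3. Expected counts on annotated genes came to 17474991, 15303615 and 16882311 in libraries 1, 2 and 3, and cell cycle genes took 0.188%, 0.167% and 0.165% of them. Class values are given below with library 1 and for libraries 2 and 3 alone. The labelled cell type was checked with marker lists. All 8 T cell markers and all 6 CD4 memory markers were detected, but their levels moved with library 1. Of the CD4 memory markers 5 of 6 were lower in library 1 by the chi-square test used below, and only Itgb1 was higher. Their summed TPM was 2082 in library 1, against 3063 and 2970 in libraries 2 and 3. S100a4 had 23.2 TPM in library 1 against 178 and 224 in libraries 2 and 3, Il7r had 390.4 against 649 and 648, and Cd4 had 269 against 541 and 523. Of the T cell markers 5 of 8 were higher in library 1, among them Trac and Lck, and 2 were lower, Cd3e and Cd5. The summed TPM of the 8 was 14969 in library 1 against 10021 and 9982 in libraries 2 and 3. Such calls were common, since the chi-square test called 75.8% of all genes tested. It called 40.2% of them lower and 32.9% higher in library 1. Of 44 markers of other blood cells 11 were detected (Cd8b1, Cd1d1, S1pr2, Jchain, Sdc1, Xbp1, Derl3, Cd68, Tfrc, Klrb1c and Eomes), and the median TPM over the 44 was 0.223. Of these lists, 4 of 6 plasma cell, 2 of 4 NK cell, 1 of 2 CD8 T cell and 1 of 5 thymocyte markers were detected. Detected too were 1 of 4 germinal centre B cell, 1 of 6 monocyte and macrophage and 1 of 6 erythroid precursor markers. For B cells it was 0 of 6 and for neutrophils 0 of 5. The highest plasma cell marker had a mean of 225 TPM and the highest thymocyte marker, Cd1d1, 82.4 TPM. The medians of these lists were 1.95 TPM for plasma cell and 0.0267 TPM for thymocyte markers. By the same detection threshold, given below, 21.1% of all annotated genes and 44.9% of protein-coding genes were detected. Rag2, Dntt, S100a8, S100a9, Mpo and Elane had no count in any library. In RNA from many cells, fewer cells with a transcript and less RNA per cell cannot be told apart, so a level below is an average over the sorted cells.

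The promoters of the genes at the ends of the range are shown first, so that their letters can be set beside the E2F and CHR words named above, which only some of them hold. RefSeq (GRCm38.p6) gave the 250 bases before the start of 38 of 47 cell cycle genes, and Mcm4, Ccne2, Ccna2, Ccnd2, Ccnd1, Aurkb, E2f4, Gmnn and Tpx2 had no entry. The sequences read 5′ to 3′ on the strand of the gene and end at the base before the RefSeq start, which can differ from the GENCODE start. Capitals mark 3 kinds of short words on either strand. They are E2F words (TTTCCCGC, TTTCGCGC, TTTGCCGC and TTTGGCGC), the CHR word TTTGAA, and CCAAT, which is ATTGG on the other strand. Where words overlap, as at 1 place before Mcm6, the run of capitals spans both. A match describes the letters only, and no binding was measured in these cells. The first 3 are the replication genes with the highest TPM that had an entry, Pcna (chr2:132253181-132253430, minus strand), Mcm6 (chr1:128359706-128359955, minus strand) and Cdt1 (chr8:122567765-122568014, plus strand).
Pcna: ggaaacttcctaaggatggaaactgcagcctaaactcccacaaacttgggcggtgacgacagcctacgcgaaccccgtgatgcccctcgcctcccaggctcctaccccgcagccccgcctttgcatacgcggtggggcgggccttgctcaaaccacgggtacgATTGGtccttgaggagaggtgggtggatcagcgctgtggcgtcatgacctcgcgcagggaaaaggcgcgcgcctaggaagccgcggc
Mcm6: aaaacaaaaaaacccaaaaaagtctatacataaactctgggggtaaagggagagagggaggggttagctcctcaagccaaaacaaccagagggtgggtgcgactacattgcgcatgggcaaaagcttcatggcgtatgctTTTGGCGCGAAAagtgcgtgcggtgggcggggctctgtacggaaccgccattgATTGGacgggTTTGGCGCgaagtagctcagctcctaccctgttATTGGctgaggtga
Cdt1: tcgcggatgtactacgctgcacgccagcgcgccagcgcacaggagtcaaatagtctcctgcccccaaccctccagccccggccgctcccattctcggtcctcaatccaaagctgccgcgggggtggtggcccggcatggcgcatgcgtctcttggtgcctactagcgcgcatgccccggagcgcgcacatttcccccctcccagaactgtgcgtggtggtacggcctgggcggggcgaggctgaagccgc
The next 3 are the mitotic genes with the lowest TPM, Cenpf (chr1:189688087-189688336, minus strand), Bub1 (chr2:127831860-127832109, minus strand) and Cenpe (chr3:135212313-135212562, plus strand). Top2a (chr11:99024190-99024439, minus strand), the highest mitotic gene with a CHR word, was added after its values were seen.
Cenpf: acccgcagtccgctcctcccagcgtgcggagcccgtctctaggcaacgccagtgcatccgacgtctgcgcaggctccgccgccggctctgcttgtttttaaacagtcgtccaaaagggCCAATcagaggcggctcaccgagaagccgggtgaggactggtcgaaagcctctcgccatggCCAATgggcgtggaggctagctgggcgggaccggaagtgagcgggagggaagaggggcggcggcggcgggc
Bub1: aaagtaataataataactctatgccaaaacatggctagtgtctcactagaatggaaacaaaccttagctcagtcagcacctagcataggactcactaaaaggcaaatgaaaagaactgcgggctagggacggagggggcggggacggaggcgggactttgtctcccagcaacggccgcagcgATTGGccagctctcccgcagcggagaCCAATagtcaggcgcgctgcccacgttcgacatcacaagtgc
Cenpe: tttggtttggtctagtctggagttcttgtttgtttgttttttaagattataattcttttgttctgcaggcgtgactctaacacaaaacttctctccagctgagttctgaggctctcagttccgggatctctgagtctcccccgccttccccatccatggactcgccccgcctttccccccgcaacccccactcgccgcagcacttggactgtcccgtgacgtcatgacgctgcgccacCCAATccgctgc
Top2a: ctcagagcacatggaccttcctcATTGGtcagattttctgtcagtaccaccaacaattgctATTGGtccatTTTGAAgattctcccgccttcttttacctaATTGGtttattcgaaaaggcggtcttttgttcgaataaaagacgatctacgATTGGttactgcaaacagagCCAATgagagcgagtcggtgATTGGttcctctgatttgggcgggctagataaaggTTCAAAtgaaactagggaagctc
The promoter of Mcm6 held 3 E2F words, 2 of which overlap, beside CCAAT words, whereas that of Pcna held a CCAAT word alone and that of Cdt1 none of these words. Cenpf, Bub1 and Cenpe held CCAAT words and no CHR word. Top2a held 6 CCAAT words and 2 CHR words, at 179 to 174 and 23 to 18 bases before the start.

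Over all promoters, E2F words were in 6 of 16 replication genes (37.5%), namely Cdc6, Mcm5, Mcm6, Mcm7, Orc1 and Pola1. They were in 2 of 8 G1 genes, Cdk2 and E2f3, and in 1 of 14 mitotic genes, Cdk1. Of 17491 protein-coding genes with an entry, 2.72% held an E2F word, and of all 27025 genes 2.16%. CHR words were in 6 of 14 mitotic genes (42.9%), namely Ccnb2, Cdk1, Kif11, Mki67, Top2a and Ube2c, in 1 of 16 replication genes, Mcm2, and in 2 of 8 G1 genes (25%), E2f2 and E2f3. Of protein-coding genes 16.9% held a CHR word, and of all genes 18.3%. CCAAT was in 12 of 14 mitotic genes, 12 of 16 replication genes and 4 of 8 G1 genes, and in 39.5% of protein-coding genes. These shares describe letters in a fixed window and are set beside the levels that follow without a test.

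Most G1 and replication genes were detected and most mitotic genes were not. Detection was set at 1 TPM or more in every library, which 30 of 47 cell cycle genes (63.8%) reached, against 21.1% of all annotated genes and 44.9% of protein-coding genes. The detected genes were 10 of 12 G1 genes, 17 of 18 replication genes and 3 of 17 mitotic genes. The median over each class of the mean TPM was 11.6 for G1, 19.3 for replication and 0.847 for mitotic genes, against 0.480 for all protein-coding genes and 24.1 for detected genes. The class medians include undetected genes and the 24.1 does not, so these are unlike sets and the classes were not ranked against it. Of the G1 genes, 6 of 12 were under 10 TPM. In libraries 2 and 3 alone the class medians were 9.60, 21.2 and 0.665. Over genes with a mean of at least 1 TPM, in all 3 libraries, they were 15.3, 20.7 and 2.51. In libraries 1, 2 and 3 in turn, the summed TPM was 926, 996 and 898 for G1 genes, 702, 632 and 586 for replication genes, and 20.2, 19.4 and 18.7 for mitotic genes. By sum, G1 genes were the highest class and mitotic genes the lowest in each library, whereas by median replication genes were above G1 genes. Ccnd2 alone had a mean of 452 TPM, of a mean G1 sum of 940 TPM.

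**Figure D1:**
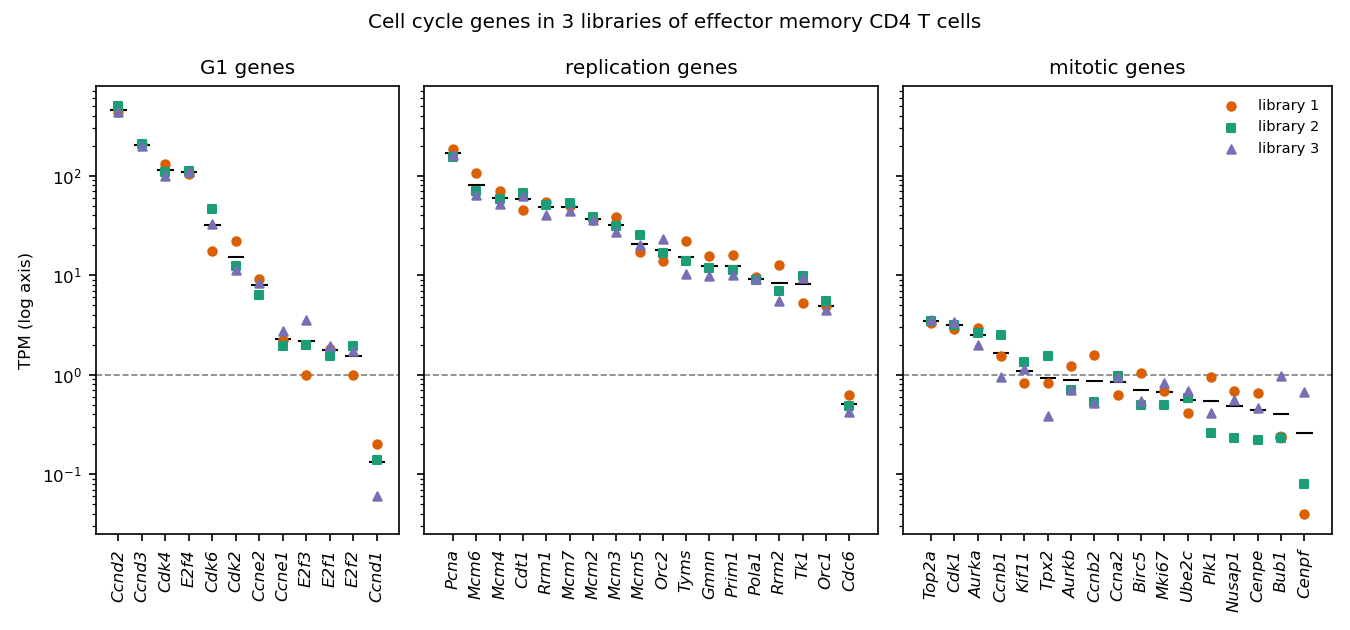
TPM (log axis) of the 47 cell cycle genes in libraries 1, 2 and 3, one panel per class, each gene's mean as a bar and 1 TPM as the dashed line; the open mark of Bub1 in library 1 is the limit that a count of 0 allows. G1 genes spread from Ccnd2 with a mean of 452 down to Ccnd1 with 0.133, 17 of 18 replication genes lie above 1 TPM in every library, and no mitotic gene exceeds 3.56 TPM.

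Of the G1 genes, Ccnd2, Ccnd3, Cdk4 and E2f4 had the highest levels. Ccnd2, which encodes cyclin D2 (chr6:127125162-127152193, GRCm38, minus strand), had 431, 494 and 432 TPM in libraries 1, 2 and 3 and was the highest of the 47 genes, with a mean of 452 ± 36.4 (SD, n = 3). Ccnd3, which encodes cyclin D3 (chr17:47505051-47599691, plus strand), had 206, 208 and 196 TPM. Ccnd1, which encodes cyclin D1, had 0.20, 0.14 and 0.06 TPM from 5, 5 and 2 counts and was the lowest of the 47 genes. Of the 3 D-type cyclins, then, 2 ranked first and second and 1 last, and Ccnd2 was 2.10, 2.38 and 2.20 times Ccnd3 in libraries 1, 2 and 3. Ccnd1 shares 23.4% of its exon bases with LTO1 on the opposite strand, and it is not known whether counting used strand, so part of its few counts may belong to that gene.

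Cdk4 (chr10:127063534-127067920, plus strand), a kinase partner of the D-type cyclins, had 130, 108 and 99.9 TPM. Its relative Cdk6 had 17.4, 46.4 and 32.7 TPM, so that library 1 was the lowest for Cdk6 and the highest for Cdk4. Cdk4 shares 19.7% of its exon bases with Tspan31 on the opposite strand, a gene with a mean TPM of 97.2, so its level is uncertain. Cdk2, the kinase that pairs with cyclins E and A, had 22.2, 12.4 and 11.3 TPM, with library 1 above the other libraries.

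The E-type cyclins, which act at the G1 to S boundary, were lower than Ccnd2 and Ccnd3. Ccne2 had 9.05, 6.34 and 8.38 TPM and Ccne1 had 2.21, 1.96 and 2.76 TPM, so that Ccne2 was 3.04 to 4.10 times Ccne1. Ccne2 shares 17.4% of its exon bases with Ints8 on the opposite strand. The E2F genes differed widely in level. E2f4, the repressor-type factor found in DREAM (chr8:105297663-105305370, plus strand), had 104.7, 112 and 107 TPM. The activator-type factors stood far lower, with 1.80, 1.55 and 1.94 TPM for E2f1, 0.99, 1.95 and 1.73 TPM for E2f2, and 1.00, 1.99 and 3.54 TPM for E2f3. E2f4 was 55.4 to 72.4 times E2f1 in the 3 libraries. E2f2 missed the detection call through library 1 alone, and without library 1 it counted as detected.

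Of the replication genes, those of the MCM helicase and the polymerase clamp were at levels above most protein-coding genes. Pcna, which encodes the clamp (chr2:132249162-132253314, minus strand), had 186, 153 and 160.0 TPM, and its mean exceeded that of 95.5% of protein-coding genes. Mcm6 (chr1:128331590-128359664, minus strand) had 106, 69.7 and 63.8 TPM and Mcm4 (chr16:15623897-15637400, minus strand) had 69.5, 58.5 and 52.1 TPM. Library 1 was the highest for these 3 genes. Mcm7 had 49.1, 52.9 and 43.7 TPM, Mcm2 had 35.6, 38.6 and 35.9 TPM, and Mcm3 had 38.8, 30.9 and 27.0 TPM. Mcm5 had 16.96, 25.4 and 19.9 TPM and was the lowest of the 6 helicase subunits in every library, while Mcm6 was the highest in every library. The 6 subunits form 1 hexamer with 1 copy each, and the highest transcript was 6.24, 2.75 and 3.21 times the lowest in libraries 1, 2 and 3.

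The factors that load the helicase were uneven. Cdt1, the loading factor (chr8:122568015-122573554, plus strand), had 45.0, 67.1 and 62.2 TPM. Gmnn, which encodes geminin, the inhibitor of Cdt1, had 15.6, 11.8 and 9.70 TPM, so that Cdt1 was 2.90, 5.67 and 6.41 times Gmnn. Cdc6, the other loading factor, had 0.63, 0.49 and 0.42 TPM from 18, 11 and 11 counts and was the only replication gene below the detection threshold. Orc1 and Orc2 encode subunits of the origin recognition complex. Orc1 had 4.90, 5.51 and 4.46 TPM and Orc2 had 13.9, 16.8 and 22.9 TPM. Orc2 shares 29.8% of its exon bases with Nif3l1 on the opposite strand, a gene with a mean TPM of 21.5, so its level is uncertain.

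Of the nucleotide supply genes, Rrm1, the large subunit of ribonucleotide reductase (chr7:102441695-102469771, plus strand), had 54.8, 50.8 and 40.4 TPM. Rrm2, the small subunit, tied to S phase in cycling cells, had 12.7, 6.93 and 5.45 TPM. Rrm1 was 4.30, 7.32 and 7.41 times Rrm2. Tyms, which encodes thymidylate synthase, had 21.95, 13.9 and 10.3 TPM, and Tk1, the cytosolic thymidine kinase, had 5.23, 9.77 and 9.26 TPM. Library 1 was thus the highest for Tyms and Rrm2 and the lowest for Tk1. Pola1 and Prim1, subunits of the polymerase alpha and primase complex, had means of 9.24 ± 0.306 and 12.3 ± 3.02 TPM (SD, n = 3).

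Of the mitotic genes, none reached 4 TPM in any library, and 3 were detected. Top2a, which encodes topoisomerase II alpha (chr11:98992943-99024189, minus strand), had 3.33, 3.47 and 3.56 TPM. Cdk1, the mitotic kinase, had 2.88, 3.13 and 3.40 TPM from 20, 23 and 29 counts. Its coding transcripts alone had 0.97, 2.07 and 2.17 TPM, below the detection threshold in library 1. Aurka, the centrosome kinase, had 2.92, 2.63 and 1.97 TPM. The cyclin partners of Cdk1 were lower. Ccnb1 had 1.54, 2.53 and 0.94 TPM, Ccnb2 had 1.57, 0.53 and 0.52 TPM and Ccna2 had 0.63, 0.97 and 0.94 TPM. Ccna2 shares 12.5% of its exon bases with Exosc9 on the opposite strand, a gene with a mean TPM of 34.0, so its level is uncertain. Kif11, the bipolar spindle motor, had 0.83, 1.33 and 1.15 TPM, and it counted as detected without library 1.

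Mki67, the gene of the proliferation marker Ki-67 (chr7:135689784-135716361, minus strand), had 0.68, 0.50 and 0.83 TPM from 180 counts over all libraries, with an exact 95% Poisson interval of 155 to 208 that covers counting error only. It was thus present at a low level and not absent. Pcna was 274, 306 and 193 times Mki67 per transcript length in libraries 1, 2 and 3. That ratio depends on the count table, since an older deposited table held 15.95% of these counts for Pcna and 89.2% for Mki67. Top2a was 4.90, 6.94 and 4.29 times Mki67.

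The other mitotic genes were at the same low level. Aurkb, the chromosomal passenger kinase, had 1.23, 0.70 and 0.70 TPM and Birc5, which encodes survivin of the same complex, had 1.04, 0.50 and 0.55 TPM. Plk1, a kinase of mitotic entry, had 0.96, 0.26 and 0.41 TPM, and Tpx2, a spindle assembly factor, had 0.82, 1.55 and 0.39 TPM. Ube2c, a ubiquitin-conjugating enzyme that works with the anaphase-promoting complex, had 0.41, 0.58 and 0.68 TPM, with 22.8% of its exon bases shared with Tnnc2 on the opposite strand. These 5 genes rested on few counts. Nusap1, a spindle protein, had 0.68, 0.23 and 0.56 TPM and Cenpe, a kinetochore motor, had 0.65, 0.22 and 0.46 TPM. Cenpf, a kinetochore protein, had 0.04, 0.08 and 0.67 TPM from 3, 3 and 6 counts, and its TPM moved with the estimated transcript length as well as with the counts. Bub1, the spindle checkpoint kinase (chr2:127801122-127831865, minus strand), was the only cell cycle gene with no count in a library. It had 0, 7 and 10 counts, or 0, 0.23 and 0.98 TPM, and its count of 0 in library 1 allows a level of up to 0.235 TPM at the 3 counts taken as the limit.

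In order of mean TPM, the 10 highest cell cycle genes were 4 G1 and 6 replication genes, and the 15 lowest were 13 mitotic genes with Cdc6 and Ccnd1. The lowest library of 17 of 18 replication genes and of 7 of 12 G1 genes was above 3.56 TPM, the highest value of any mitotic gene in any library, a level that 38.8% of protein-coding genes exceeded in every library. Of the 46 pairs of neighbours in the order, 39 had ranges over the libraries that overlapped and 7 did not. The TPM order was clear at the top, where Ccnd2, Ccnd3 and Pcna were each apart from the next gene. It depends on the count table, since in the older table Pcna had 1056 counts over the libraries and Cdk4 2036. The effective lengths of Cdk4 were shorter than those of Pcna in every library. From Top2a down to Cenpf, a run that also holds G1 genes and Cdc6, each gene's range overlapped that of its next neighbour. Neighbours are next in rank by mean, so their overlap does not show whether genes further apart in the order differ.

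The wider pathway was read from 8 further lists of 160 genes, of which 121 (75.6%) were detected. Of 41 other origin and fork genes 36 were detected, led by Pole4, a small polymerase epsilon subunit, at 194 ± 11.9 TPM, Rpa1, the large subunit of the single-strand binding protein, at 147 ± 103 TPM, and Rpa2 at 115 ± 22.4 TPM (SD, n = 3). Library 1 set the mean of Rpa1, with 266 TPM against 94.2 and 81.1 TPM in libraries 2 and 3. The undetected were Mcm8, Mcm10, Gins1, Dna2 and Chaf1a. Of 11 other nucleotide synthesis genes 9 were detected, led by Samhd1, an enzyme that degrades deoxynucleotides, at 228 ± 46.9 TPM, followed by Tk2 at 47.5 ± 2.04 and Dtymk at 38.5 ± 0.940 TPM (SD, n = 3).

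Of the brakes on the cycle, some were abundant and others low. Of 7 inhibitors of cyclin-dependent kinases 6 were detected, with a median of 8.52 TPM over the 7, or 4.90 TPM in libraries 2 and 3. Cdkn1c, Cdkn2c and Cdkn2b had means of 8.52, 3.70 and 3.26 TPM, and Cdkn2a was not detected. Cdkn1a, which encodes p21, had 207, 141 and 125 TPM, Cdkn2d, which encodes p19INK4d, had 78.1, 40.9 and 40.4 TPM, and Cdkn1b, which encodes p27, had 14.5, 42.9 and 49.3 TPM. Library 1 was the highest for Cdkn1a and Cdkn2d and the lowest for Cdkn1b. Of 10 genes of pocket proteins and MuvB, 8 were detected, led by Rbbp4, a histone-binding subunit, at 217 ± 4.19 TPM and Rbl2, which encodes the pocket protein p130, at 72.6 ± 8.99 TPM (SD, n = 3). Lin37, a MuvB subunit, had 113, 41.4 and 38.5 TPM. The undetected pair were Mybl2, with 0.92, 1.56 and 1.97 TPM, and Foxm1, with 0.51, 2.44 and 1.80 TPM, the partners of MuvB that activate mitotic genes. Both missed the call through library 1 alone and exceeded 1 TPM in libraries 2 and 3. Of 6 other E2F and DP genes 4 were detected, led by Tfdp1, a DP partner of E2F factors, at 51.8 ± 5.58 TPM, with Tfdp2 at 26.1 ± 6.74 and E2f5 at 20.3 ± 2.47 TPM (SD, n = 3). The late-cycle repressors E2f7 and E2f8 were not detected.

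Of 18 other CDK and cyclin genes 15 were detected, led by Ccng2, a cyclin linked to cell cycle exit, at 121 ± 52.9 TPM, Cks2 at 104 ± 9.53 TPM and Ccng1 at 51.3 ± 1.09 TPM (SD, n = 3). Ccna1, Ccnb3 and Cdc25c were not detected. Ccnb3 had no count in any library, which allows up to 0.0625, 0.0757 and 0.0649 TPM in libraries 1, 2 and 3. Of 51 other mitotic genes 27 passed the detection threshold, and their median TPM was 1.74, against 0.847 for the 17 mitotic genes above. The 3 highest were Pttg1, which encodes securin, at 200 ± 72.3 TPM, Cenpa, the centromeric histone, at 179 ± 16.7 TPM, and Zwint, a kinetochore protein, at 145 ± 67.9 TPM (SD, n = 3). Library 1 was the highest for Pttg1 and Zwint, with 223 TPM of Zwint in library 1 against 105.6 and 105.1 in libraries 2 and 3. Each of these 3 was above 100 TPM in every library, so low TPM did not extend to every gene with a mitotic role. The older count table held 47.1% of these counts for Pttg1, 17.1% for Cenpa and 24.7% for Zwint, so their levels depend on the count table. Cdc20, the mitotic activator of the anaphase-promoting complex, had 8.63, 6.34 and 3.99 TPM. All 16 genes of that complex and its regulators were detected, with Anapc5 at 226 ± 58.2, Anapc2 at 66.5 ± 6.46 and Anapc11 at 66.0 ± 9.42 TPM (SD, n = 3).

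**Figure D2:**
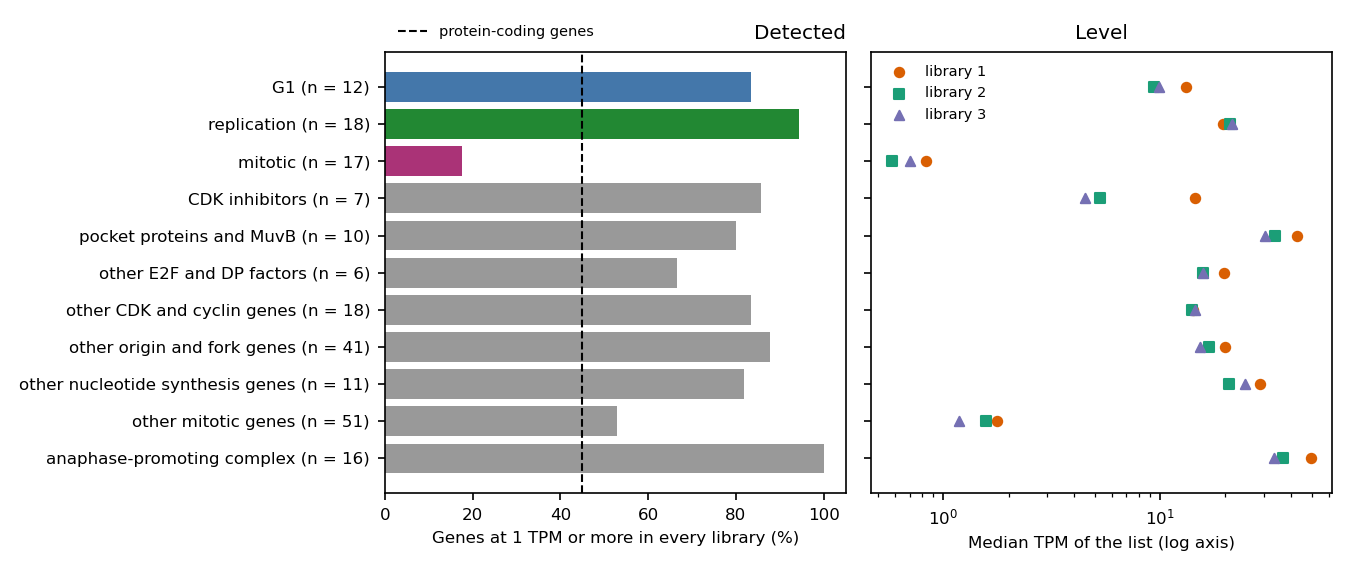
Left, percent of each of 11 cell cycle lists detected at 1 TPM or more in every library, with the dashed line at the 44.9% of protein-coding genes; right, median TPM of each list in each library (log axis). Of these 11 lists, that of the 17 mitotic genes alone lies below the line, at 17.6%, and has the lowest median in each library.

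Cell cycle genes varied between libraries beyond counting error, as did most genes of these libraries. Pearson's chi-square test of homogeneity on rounded expected counts, with Benjamini-Hochberg adjustment over 13177 genes, called 25 of 41 cell cycle genes with 30 or more counts (61.0%), against 75.8% of all genes tested. By class these were 6 of 11 G1, 13 of 18 replication and 6 of 12 mitotic genes. Of the 25 genes, 15 took a larger share of the counts in library 1 than in libraries 2 and 3 and 10 a smaller one. The higher genes were 60% of the called cell cycle genes higher or lower in library 1, against 45.1% over all such called genes. Of all genes tested, 32.9% were called and higher in library 1 and 40.2% called and lower. With TMM scaling in place of total counts the split was 21 higher and 8 lower of 30 called, and with DESeq2 size factors 22 higher and 8 lower of 31. The background turned as well, with 5083 genes higher and 4533 lower under TMM and 5240 higher and 4386 lower with DESeq2 size factors. The share of higher genes was then 72.4% of cell cycle genes against 52.9% of all genes with TMM. With DESeq2 size factors it was 73.3% against 54.4%. The markers of the labelled cell type moved with library 1 too, as given above, and their part in these differences was not tested. Between libraries 2 and 3 alone the test called 3 of 37 cell cycle genes (8.11%), against 16.7% of all genes tested, namely Cdk6 (adjusted p = 0.00342), Pcna (adjusted p = 0.00968) and Mki67 (adjusted p = 0.0147). Division of the chi-square by its median overdispersion of 19.9 left 1 cell cycle gene, Mcm6, and 21.6% of all genes tested.

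Relative to libraries 2 and 3, library 1 was highest for Rrm2, Cdk2 and Tyms and lowest for Cdk6, Tk1 and Cdt1 among cell cycle genes with a mean of at least 5 TPM. On the log2(TPM + 1) scale, which understates the change of low genes, library 1 minus the mean of the other libraries was 0.94 for Rrm2, 0.85 for Cdk2 and 0.83 for Tyms. It was -1.12 for Cdk6, -0.75 for Tk1 and -0.51 for Cdt1. All 6 were called by the chi-square test, with adjusted p of 5.66e-16 for Rrm2, 5.57e-24 for Cdk2 and 1.12e-10 for Tyms. The adjusted p was 1.52e-36 for Cdk6, 1.07e-04 for Tk1 and 2.46e-18 for Cdt1. These genes were picked by the same difference between libraries, so the calls add no support. The p-values allow for counting error only, and none of the 6 stayed called after division by the overdispersion. The median of this difference was -0.02 over G1 genes, 0.21 over replication genes and -0.04 over mitotic genes, against -0.10 over all genes tested. Replication genes stayed above the median gene under both other scalings, at 0.39 against 0.02 with TMM and 0.41 against 0.05 with DESeq2 size factors. The G1 median was 0.15 and 0.18 under these scalings, so its direction turned.

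The 3 MCM genes called higher in library 1 were Mcm3, Mcm4 and Mcm6, and Mcm5 was called lower, while Mcm2 and Mcm7 were not called. Calls were common, at 75.8% of all genes tested, and of the MCM genes only Mcm6 stayed called after division by the overdispersion. A TPM and a count can move apart where the estimated transcript length differs between libraries. Ccnd2 had 5911, 4373 and 4868 counts, which is the largest share of the counts in library 1, but its TPM was 0.10 lower in library 1 on the log2 scale, at effective lengths of 1277, 997 and 1089 bases. The 2 scales differed in sign for 4 cell cycle genes, Ccnd2, E2f4, Ccnb1 and Mki67.

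**Figure D3:**
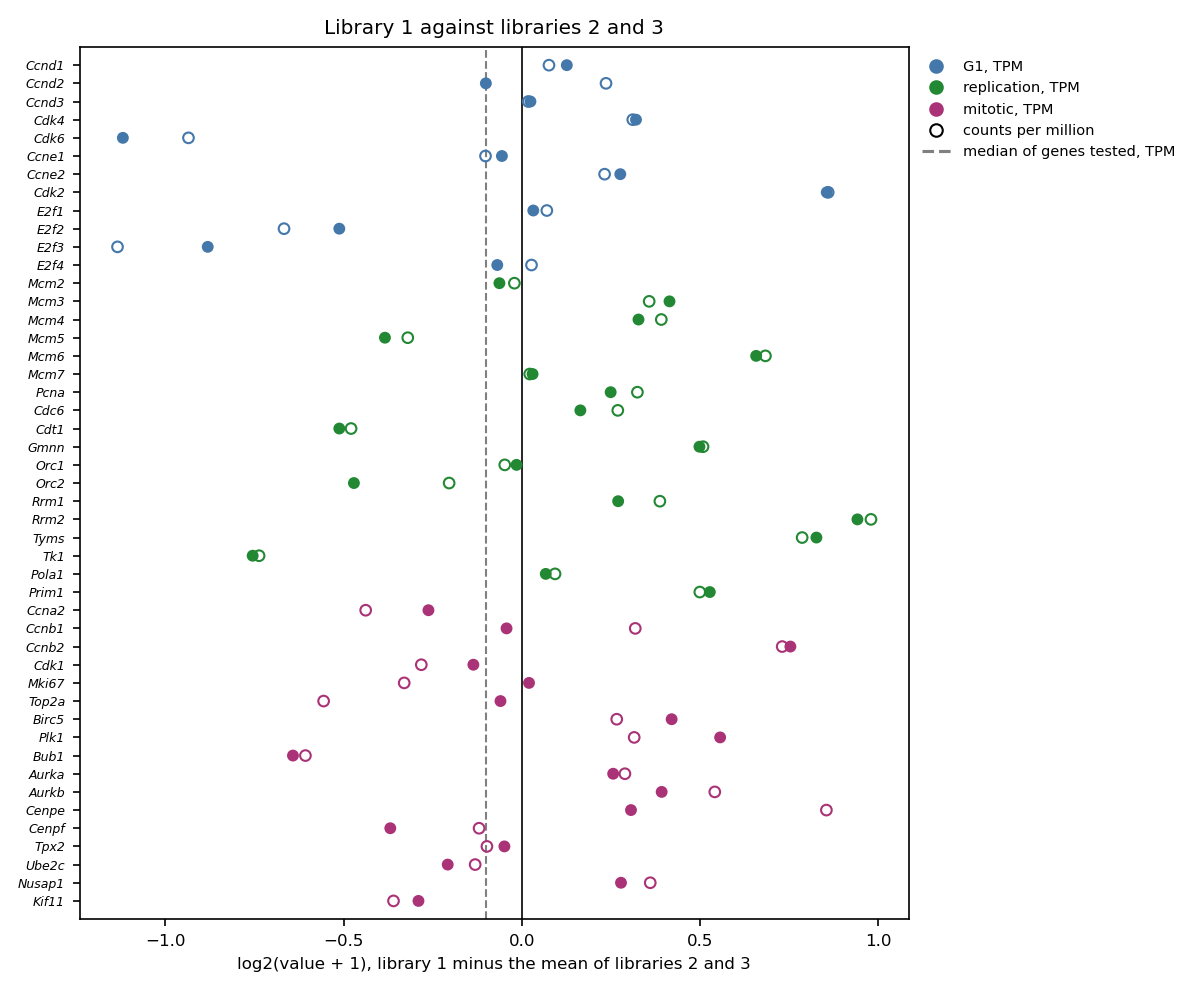
Library 1 minus the mean of libraries 2 and 3 on the log2(value + 1) scale for the 47 cell cycle genes, filled for TPM and open for counts scaled by library totals, with the dashed line at the median of genes tested (-0.10). Rrm2 at 0.94 and Cdk6 at -1.12 are the ends on the TPM scale among genes of at least 5 TPM, and genes of each class lie on both sides of 0.

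A gene's TPM sums all its annotated transcripts, including those not annotated as coding. Among the 14 cell cycle genes with a mean of at least 20 TPM, 11 had 1 transcript above 50% of the gene in every library, and all 11 of these transcripts were protein-coding. Pcna-201 held 78.5% ± 2.70 of Pcna, Mcm6-201 95.4% ± 1.90 of Mcm6 and E2f4-201 85.6% ± 3.801 of E2f4 (SD, n = 3). Ccnd2 and Cdk4 stood apart, with protein-coding transcripts at 62.7% ± 2.68 and 48.0% ± 4.86 of their TPM (SD, n = 3). The noncoding rest of Ccnd2 was mostly processed transcripts at 36.0% ± 2.04, and that of Cdk4 was mostly retained introns at 44.2% ± 4.65 (SD, n = 3). With coding transcripts alone Ccnd2 had 283, 300.4 and 266 TPM and was still the highest of the 47 genes.

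Tyms, below 20 TPM and named after its values were seen, had the smallest coding share among the 23 cell cycle genes of at least 5 TPM. Its coding transcripts made up 6.14%, 29.2% and 13.0% in libraries 1, 2 and 3, and transcripts annotated for nonsense-mediated decay 79.7%, 50.6% and 67.3%. These shares rest on 243, 131 and 115 counts and differed widely between libraries. Rrm1 had 69.4% ± 7.36 in coding transcripts and 22.2% ± 10.2 in those annotated for nonsense-mediated decay (SD, n = 3).

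**Figure D4:**
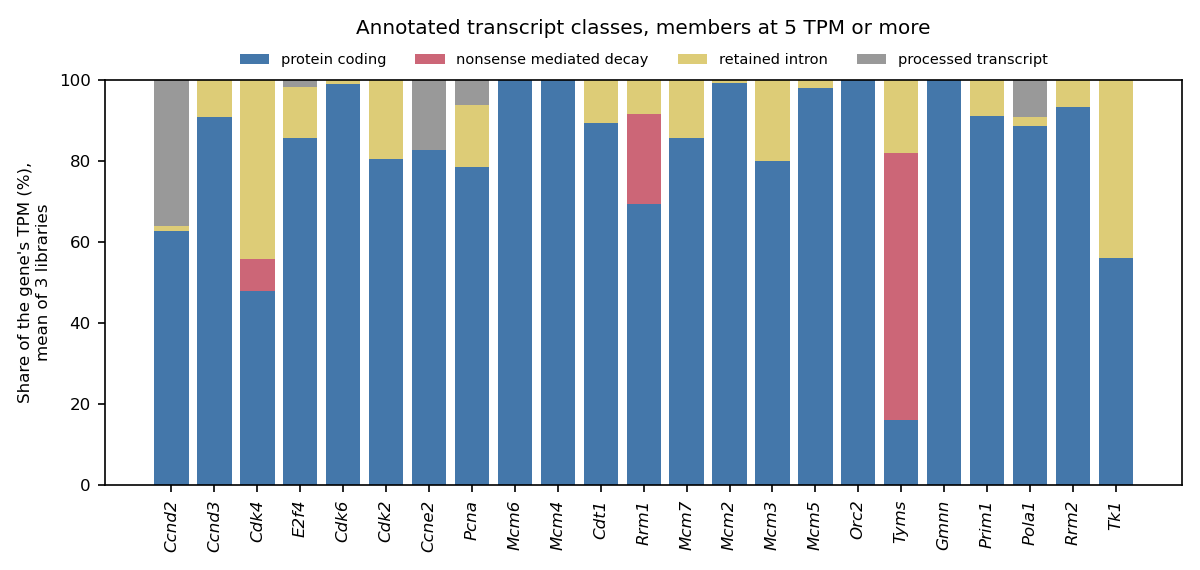
Mean share over 3 libraries (%) of each gene's TPM in annotated transcript classes, for the 23 cell cycle genes of at least 5 TPM, G1 genes left and replication genes right. Coding transcripts fill most bars, and the shortest coding parts are those of Tyms at 16.1%, Cdk4 at 48.0%, Tk1 at 56.0% and Ccnd2 at 62.7%.

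Each library also had whole-number counts on the older GENCODE M4 annotation, which gave a check of the levels. Over 10734 protein-coding genes, the M4 count was a median of 51.6% of the M21 expected count, with quartiles at 33.9% and 68.0%. Over the 41 cell cycle genes with 30 or more counts the median was 62.8%. The genes below the lower quartile were Ccnb1 at 11.7%, Pcna at 15.95%, Ccnd3 at 23.6%, Cdk6 at 26.5%, Ccnd2 at 27.1% and Tk1 at 28.0%. Pcna, Ccnb1, Ccnd3, Ccnb2 and Tyms have annotated pseudogenes named after them, and their counts are uncertain where reads match a copy as well. Of these 5, Ccnb2 and Tyms were not below the lower quartile in the older table, and Ccnd2, Cdk6 and Tk1 were low with no copy of that name listed. Copies were taken by name alone, and their part in the older counts was not tested. The 3 highest cell cycle genes, Ccnd2, Ccnd3 and Pcna, were all among the 6 genes below the lower quartile, so the order at the top depends on the count table. Of the highest other origin and fork genes, Pole4 was at 13.6%, Rpa1 at 43.3% and Rpa2 at 39.9%. Of the highest other CDK and cyclin genes, Ccng2 was at 30.6%, Cks2 at 2.67% and Ccng1 at 29.4%.

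**Figure D5:**
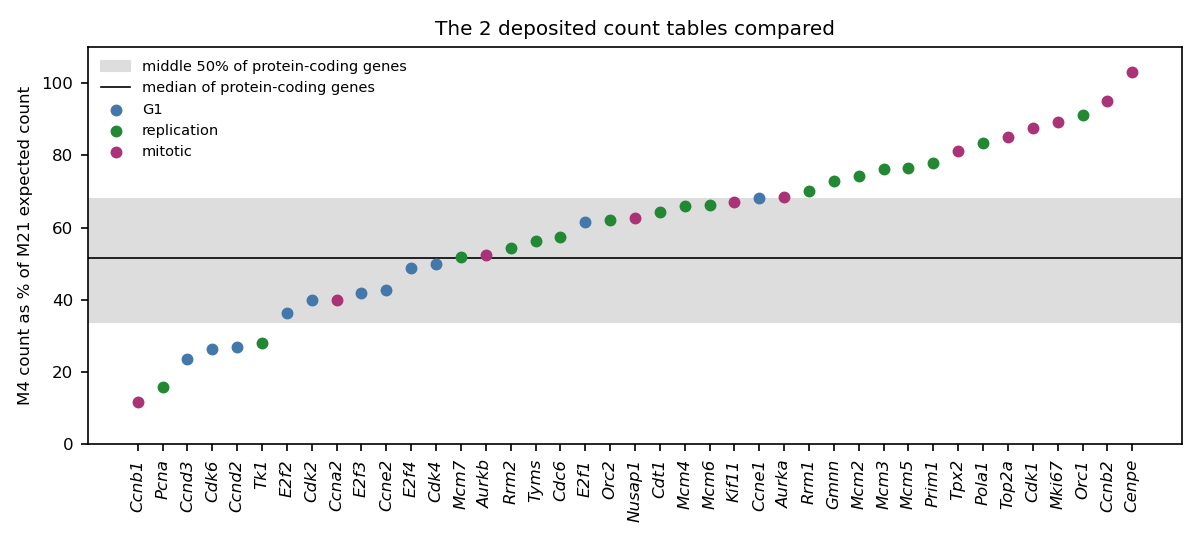
Count on the GENCODE M4 annotation as a percent of the M21 expected count, summed over 3 libraries, for the 41 cell cycle genes with 30 or more counts, with the middle 50% of protein-coding genes shaded (33.9% to 68.0%). Ccnb1 at 11.7% and Pcna at 15.95% are the lowest, and 16 cell cycle genes lie above the shaded band.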

How the data were processed

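The labels give 3 libraries of 1 biosample, and their technical replicate numbers name the libraries here. The authors deposited, per the file headers, expected counts, TPM and FPKM per gene on GENCODE M21 and mm10, and TPM and percent of the gene per transcript. The authors also deposited whole-number counts on GENCODE M4 without a header. These versions come from the submitters' processing notes and the labels. The aligner, quantifier and strand setting were not stated in the sources used.

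Of 81881 rows, 55536 carry an Ensembl ID and were kept, and the others (spike-ins and numeric IDs) stayed out of library sizes and tests. Detection meant 1 TPM or more in every library. Expected counts were rounded and compared between libraries by Pearson's chi-square test at a total of at least 30, with Benjamini-Hochberg adjusted p below 0.05. No quasi-likelihood test was run, since there is 1 group. The pseudocount was 1. A limit of 3 counts was taken for a count of 0. It and the 95% Poisson interval cover counting error only, as the tables record no molecular identifiers. Total counts were the main scaling, and TMM (edgeR 4.0.16) and DESeq2 1.42.0 size factors in R 4.3.3 the alternatives, beside other thresholds, FPKM, the M4 table and each library left out. Coding transcripts only was an alternative chosen after seeing the data. The chi-square step was tested on simulated data. Computation used Python 3.11.15 with pandas 2.3.3, scipy 1.17.1, numpy 2.4.6 and matplotlib 3.10.9.

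All 47 cell cycle genes were accounted for. The rule for values per library took every G1 gene, the 8 highest replication and 6 highest mitotic genes, genes without a count in a library, and genes with a mean TPM from 0.5 to 2. It took the 3 highest and the undetected genes (where 5 or fewer) of each other list, and the 3 highest and 3 lowest differences of library 1 among genes of at least 5 TPM. Values of the remaining cell cycle genes, of Tyms transcripts and of the Top2a promoter were added after they were seen. The undetected genes of the nucleotide synthesis list are not reported here. The members and lists were chosen with earlier results of these data known.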

Additional observations from a re-analysis of the deposited data

Results flagged for a closer look

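Pseudogene copies of cell cycle genes carried counts outside the comparisons above. Pcna-ps2, a processed pseudogene of Pcna (chr19:9283380-9284160, GRCm38), had 45 rounded counts over the libraries, with 23, 18 and 4 in libraries 1, 2 and 3, above the 3 counts that a count of 0 allows. Ccnb2-ps (chr8:71916556-71918851) had 18 rounded counts, with 4, 5 and 9 in libraries 1, 2 and 3, beside 40 counts for Ccnb2 itself. Both are annotated as processed pseudogenes and named after these genes. Their sequences were not compared with those genes, so the assignment of these reads is uncertain. Ccnd3-ps had 2, 2 and 1 counts, and Pcna-ps1, Ccnb1-ps and Tyms-ps had none.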

How the results depend on the processing

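The contrast between the higher G1 and replication genes and the lower mitotic genes kept its direction under each setting run. Detected mitotic genes numbered 10 at a threshold of 0.5 TPM, 5 at a mean of 1 TPM, and 3 to 4 with 1 library left out, against 3. They numbered 2 at a threshold of 2 TPM and 2 from coding transcripts alone. The median TPM of G1 genes was 7.01 in FPKM, 15.3 over genes with a mean of at least 1 TPM and 9.60 to 12.7 with 1 library left out. That of replication genes was 11.6, 20.7 and 18.4 to 21.2, and that of mitotic genes 0.507, 2.51 and 0.665 to 0.800, or 0.670 from coding transcripts. Genes varying between libraries numbered 2842, and cell cycle genes 1, after division by the overdispersion. Left-out libraries gave 2079 to 9260 genes and 3 to 26 cell cycle genes, with 2079 and 3 without library 1. The median log2 difference of library 1 over G1 genes changed sign to 0.15 with TMM, 0.18 with DESeq2 size factors and 0.03 without library 3 (range -0.02 to 0.03). Over replication genes it was 0.39, 0.41 and 0.12 to 0.21, and over mitotic genes -0.05 to 0.11 with a library left out. The cause was not tested. No paired analysis was possible because the labels give 1 group. Depth limits the mitotic genes most, whose 17 members shared 483, 417 and 514 counts in libraries 1, 2 and 3.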
